A study of Mus musculus with 6 samples.

Results

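The genes described here encode the enzymes of the mitochondrial tricarboxylic acid (TCA) cycle that neither make nor consume 2-oxoglutarate: citrate synthase (Cs), 2 chains of succinyl-CoA ligase (Sucla2 and Suclg1), the 4 subunits of succinate dehydrogenase (Sdha, Sdhb, Sdhc and Sdhd), fumarate hydratase (Fh1) and mitochondrial malate dehydrogenase (Mdh2). They were chosen by name, and each had a single array row that named no other gene, so that 9 of 9 were measured among 30743 genes in all.

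The TCA cycle joins acetyl-CoA to oxaloacetate to form citrate and returns oxaloacetate through a series of oxidations that feed electrons to the respiratory chain. Glutamine enters the cycle as 2-oxoglutarate, upstream of succinyl-CoA, succinate, fumarate and malate. Activated T cells use the cycle for energy and as a source of citrate and aspartate for growth.

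RNA came from mouse CD4 T cells sorted as naive cells (CD25-, CD62L+, CD44-) and stimulated through CD3 and CD28 for 3 days in IMDM with 10% fetal bovine serum. Per the labels, it was supplemented with 20 ng/ml of IL-6 and of IL-23, with 1.25 ng/ml of TGF-beta and with 10 ug/ml of antibodies that block IL-12, IL-4 and IFN-gamma, a mixture that drives cells toward the IL-17-secreting TH17 type, and it was shared by all cultures. The groups differed in the medium, with glutamine (3 arrays) or without it (3 arrays), and the comparison asks which transcripts depend on glutamine in the medium. The arrays are called biological replicates in the labels, which give neither strain, sex nor age and do not say that they came from separate mice, so that a p-value here reflects only how far these arrays vary.

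The arrays carried the labelled cell type: Cd4 stood at 16.58 ± 0.069 log2 with and 16.44 ± 0.11 without glutamine (SD, n = 3), and Cd8a stood at 3.83 and 3.78, below the array medians of 4.18 to 4.38. Of the 8 measured CD4 T cell genes, 3 rose (Cd3d by 0.88, Zap70 by 0.67 and Cd5 by 0.51), 1 fell (Thy1, by 0.93) and 4 did not pass, and the mean level of that list lay between 14.08 and 14.23 log2 on the arrays with glutamine and between 14.27 and 14.36 without it. Il17a, the cytokine gene that defines TH17 cells, was at 12.75 ± 0.41 with glutamine and at 5.94 ± 0.47 without it, so the cultures without glutamine had low levels of that marker. Of the marker lists of other cells, 0 of 4 B cell genes, 0 of 3 NK cell genes, 1 of 6 macrophage and dendritic cell genes (Lyz2, from 5.80 to 4.14) and 1 of 2 CD8 genes (Cd8b1, from 8.10 to 7.39) passed the test, and both that passed fell. The mean level of the macrophage and dendritic cell list lay between 4.04 and 4.13 log2 on the arrays with glutamine and between 3.78 and 3.86 without it, and that of the CD8 list between 5.87 and 6.02 and between 5.51 and 5.64. The part of other cells in the results was not tested.

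All values are log2 levels on the deposited scale, on which 695 to 887 rows per array exceed 16, so changes are given as log2 differences and not as folds. A change is the difference of group means, with glutamine subtracted from without, a gene passed where limma's adjusted p was under 0.05, and levels are not compared between genes. In RNA from whole cultures, fewer cells of a type and less RNA per cell cannot be told apart.

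Without glutamine, 5 of the 9 genes fell, 4 did not pass and 0 rose. Sdhd (-1.34) and Cs (-0.92) fell most, followed by Fh1 (-0.69), Mdh2 (-0.52) and Sucla2 (-0.40). The change was below 0 for all 9 genes and for 12065 of all 30743 genes. The median change was -0.40 for the 9 genes, beside 0.060 over all genes and -0.058 over genes above the median level. Of all genes, 13.0% were called lower, 9.31% higher and 22.3% in either direction. Within genes above the median level, which all 9 members are, 26.6% were called lower when those genes alone were tested. In that separate fit 6 of the 9 genes were called lower. The groups did not overlap, with the cultures without glutamine lower, for 7 of the 9 genes and for 18.8% of all genes (43.8% in either direction). These shares include dim genes, and the share among genes above the median level was not computed.

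**Figure D1:**
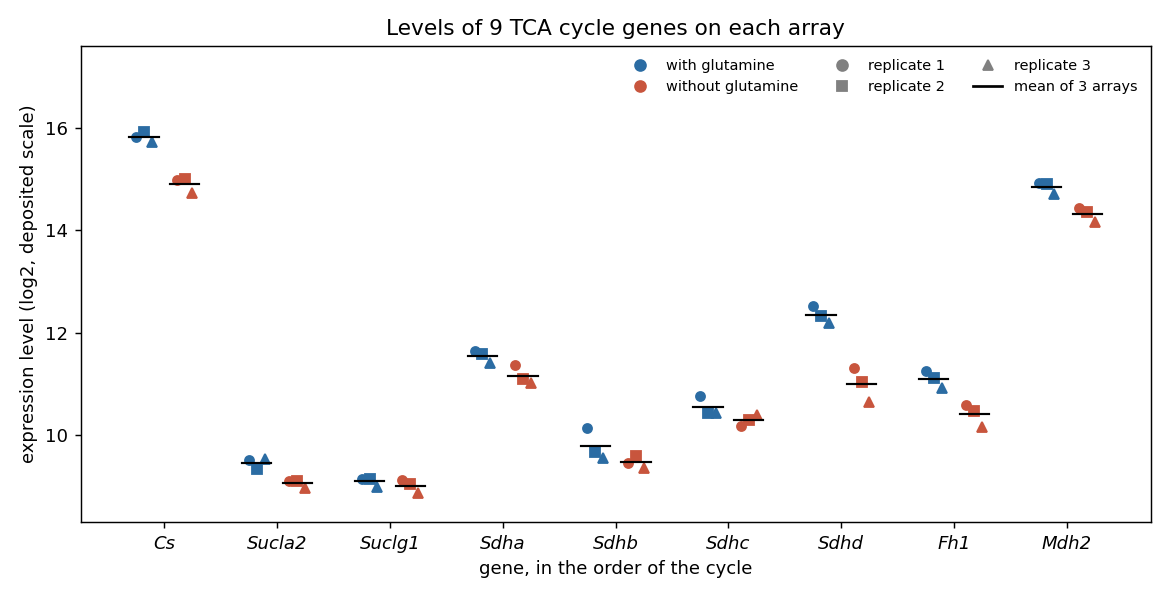
Log2 level (vertical axis, deposited scale) of each of the 9 genes on each array, in the order of the cycle. Points are arrays, with the colour giving the group and the shape the replicate, and black bars are means of 3 arrays. The groups lie apart by 0.87 for Sdhd and by 0.72 for Cs, and they overlap for Suclg1 and Sdhb.

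Cs encodes the enzyme that condenses acetyl-CoA with oxaloacetate and so admits carbon to the cycle. Its level was 15.82, 15.92 and 15.72 on the arrays with glutamine and 14.98, 15.00 and 14.73 on those without. The lowest array with glutamine stood 0.72 above the highest without, more than the spread within either group. Cs fell by 0.92 ± 0.10 (SE) from 15.82 ± 0.10 to 14.90 ± 0.15 (SD, n = 3, adjusted p = 0.00173), a change lower than that of all but 3.39% of genes. The call held under each of the alternatives run, with adjusted p between 0.000245 and 0.0220.

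Succinyl-CoA ligase turns succinyl-CoA into succinate and makes a nucleoside triphosphate, and it pairs an alpha chain, encoded by Suclg1, with a beta chain that sets which nucleotide is made. Sucla2 encodes the ATP-forming beta chain and Suclg2 the GTP-forming one. Sucla2 was at 9.51, 9.35 and 9.53 with glutamine and at 9.10, 9.11 and 8.97 without. The groups were separated by 0.24, and Sucla2 fell by 0.40 ± 0.082 (SE), from 9.46 ± 0.10 to 9.06 ± 0.076 (SD, n = 3, adjusted p = 0.0157). That call was lost when with-glutamine replicate 1 (adjusted p = 0.0504) or without-glutamine replicate 3 (adjusted p = 0.0523) was left out.

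Suclg1 was at 9.15, 9.15 and 8.996 with glutamine and at 9.12, 9.04 and 8.88 without, so the groups overlapped. Its change was -0.086, with a 95% interval from -0.30 to 0.13 (adjusted p = 0.521), and it was -0.020 with without-glutamine replicate 3 left out and -0.14 with with-glutamine replicate 3 or without-glutamine replicate 1 left out. Suclg2 went from 9.57 ± 0.071 to 8.66 ± 0.24 (SD, n = 3), a fall of 0.91 (adjusted p = 0.00414). The beta chain genes thus both fell, while the gene of the alpha chain that they share did not pass.

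Taken within each array, Sucla2 minus Suclg1 was 0.36, 0.20 and 0.54 with glutamine and -0.0245, 0.072 and 0.094 without, a difference of -0.32 in which the groups did not overlap. Sucla2 minus Suclg2 was -0.11, -0.25 and 0.042 with glutamine and 0.21, 0.42 and 0.57 without, a difference of 0.51 with no overlap. The offset between chains depends on the probes, and only its shift between groups can be read: Suclg2 changed by more than Sucla2, and Sucla2 by more than Suclg1, on these arrays. An exact permutation test over the arrays (two-sided) gave p = 0.1 for each, the smallest value that 3 arrays against 3 allow, and 0.1 after adjustment over the 3 such differences computed, so this test cannot go under 0.05 here whatever the size of the shift.

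Succinate dehydrogenase, which is also complex II of the respiratory chain, oxidises succinate to fumarate and passes the electrons to ubiquinone. Sdha encodes the flavoprotein that holds the active site, Sdhb the iron-sulfur protein that carries the electrons, and Sdhc and Sdhd the membrane anchors that bind ubiquinone. Sdhd was the member with the largest change, at 12.51, 12.32 and 12.19 with glutamine and 11.32, 11.04 and 10.66 without. All arrays without glutamine lay below all arrays with it, by at least 0.87. Sdhd fell by 1.34 ± 0.18 (SE), from 12.34 ± 0.16 to 11.004 ± 0.33 (SD, n = 3, adjusted p = 0.00340), and 1.57% of all genes had a lower change.

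The other 3 subunit genes did not pass. Sdha was at 11.64, 11.59 and 11.42 with glutamine and at 11.37, 11.11 and 11.01 without. Its groups did not overlap but were only 0.0495 apart, and its change of -0.39 ± 0.11 (SE) lay just outside the threshold (adjusted p = 0.0538). Leaving out with-glutamine replicate 3 took the adjusted p of Sdha to 0.0489, and leaving out without-glutamine replicate 1 took it to 0.0276.

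Sdhb was at 10.13, 9.68 and 9.55 with glutamine and at 9.46, 9.59 and 9.36 without. Its groups overlapped, because 1 array without glutamine stood above the lowest with it, and the array with the highest value, with-glutamine replicate 1, stood well above the other 5. The change of Sdhb was -0.31, with a 95% interval from -0.69 to 0.065 (adjusted p = 0.203), and -0.14 with with-glutamine replicate 1 left out. Sdhc, the other anchor, was at 10.77, 10.43 and 10.43 with glutamine and at 10.17, 10.30 and 10.40 without, with groups 0.031 apart. The change of Sdhc was -0.25, with a 95% interval from -0.53 to 0.025 (adjusted p = 0.170), and -0.14 with the same array left out. The interval of Sdhd, from -1.76 to -0.92, lay wholly below those of Sdha (-0.66 to -0.12), Sdhb and Sdhc.

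The shift of Sdhd against its partners can be read within each array. This difference was set up when Sdhd was already known to fall on these arrays, so its separation is a description and not independent support. Sdhd minus the mean of Sdha, Sdhb and Sdhc was 1.67, 1.76 and 1.72 with glutamine and 0.98, 0.71 and 0.40 without. The arrays with glutamine agreed to an SD of 0.046 and those without spread to an SD of 0.29, but no array of a group reached the other group. The difference was -1.02, from 1.72 to 0.70 (p = 0.1, exact permutation test, two-sided, again the smallest possible), and -0.87 when without-glutamine replicate 3, the lowest array, was left out. The 4 measured genes for assembly factors of this enzyme did not pass: Sdhaf1 changed by 0.0048, Sdhaf2, which helps to attach the flavin to Sdha, by -0.13, Sdhaf3 by 0.042 and Sdhaf4 by -0.18. Sdhaf4 stood at 4.63 with and 4.45 without glutamine, near the array medians.

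**Figure D2:**
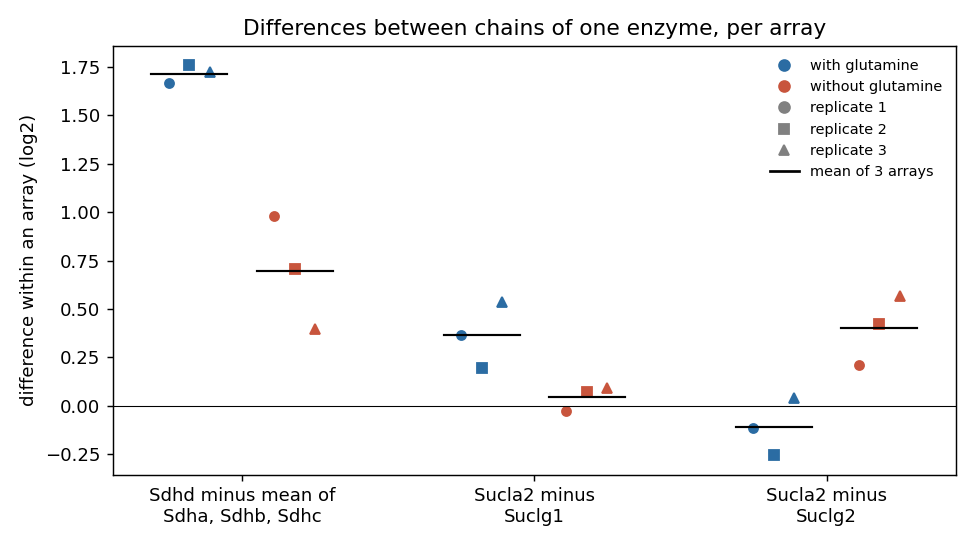
Differences in log2 level between chains of the same enzyme, computed within each array (vertical axis), for Sdhd against the mean of the other subunits of succinate dehydrogenase and for Sucla2 against Suclg1 and Suclg2. Points are arrays and black bars are means of 3 arrays. The groups do not overlap in any of the 3 differences, and the shift is largest for Sdhd, from 1.72 to 0.70. The difference for Sdhd was set up with its fall already known.

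Fumarate hydratase adds water to fumarate to form malate, and malate dehydrogenase oxidises malate to the oxaloacetate that citrate synthase uses. Fh1 was at 11.26, 11.11 and 10.92 with glutamine and at 10.59, 10.46 and 10.17 without, with the groups 0.33 apart. Fh1 fell by 0.69 ± 0.14 (SE), from 11.10 ± 0.17 to 10.41 ± 0.21 (SD, n = 3, adjusted p = 0.0143). Leaving out with-glutamine replicate 2 took the adjusted p of Fh1 to 0.05001.

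Mdh2 was at 14.92, 14.91 and 14.70 with glutamine and at 14.44, 14.35 and 14.17 without, with the groups 0.26 apart. Mdh2 fell by 0.52 ± 0.10 (SE), from 14.84 ± 0.12 to 14.32 ± 0.14 (SD, n = 3, adjusted p = 0.0134). Leaving out the same array took the adjusted p of Mdh2 to 0.0513. The cytosolic isoform gene Mdh1 fell by 0.77, from 11.48 ± 0.19 to 10.71 ± 0.020 (adjusted p = 0.00377). Mdh2 was the member closest to the mean profile of all 9 genes, each centred on its own mean over the 6 arrays, at a root mean square distance of 0.042 log2, and Sdhd was the farthest, at 0.41.

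The same array of a group was the lowest for most of these genes. Without-glutamine replicate 3 was the lowest of its group for 8 of the 9 genes, all but Sdhc, and with-glutamine replicate 3 was the lowest of its group for 8, all but Sucla2. Of genes above the median level, 45.7% and 47.5% had the lowest value of the group on the same arrays. The highest array varied more: with glutamine it was replicate 1 for 6 genes, replicate 2 for 2 and replicate 3 for 1, and without glutamine replicate 1 for 5, replicate 2 for 3 and replicate 3 for 1. Leaving out without-glutamine replicate 3 took the count of genes that fell from 5 to 4, leaving out with-glutamine replicate 1 took it to 4, leaving out with-glutamine replicate 2 took it to 3, and leaving out with-glutamine replicate 3 or without-glutamine replicate 1 took it to 6. Cs and Sdhd were called in each of these fits.

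Of 12 measured genes for the remaining enzymes of the cycle and for the pyruvate dehydrogenase complex, which feeds it with acetyl-CoA, 7 fell (58.3%), 1 rose and 4 did not pass, with a median change of -0.63. For comparison, 13.0% of all genes were called lower and 9.31% higher. Among genes above the median level, tested alone, 26.6% were called lower. Pdhb, a catalytic subunit of pyruvate dehydrogenase, fell by 1.18 from 13.40 ± 0.092 (adjusted p = 0.00275). Dld, the dihydrolipoamide dehydrogenase that pyruvate and 2-oxoglutarate dehydrogenase share, fell by 1.07 from 13.16 ± 0.064 (adjusted p = 0.00452), and Suclg2 is given above. Unequal changes of partner chains were seen here too: of the NAD-dependent isocitrate dehydrogenase, the catalytic chain gene Idh3a fell by 0.80, Idh3b changed by -0.09 (adjusted p = 0.404) and Idh3g rose by 0.30 (adjusted p = 0.0404). Idh3a and Idh3g were singled out after their values were seen. The rise of Idh3g did not pass after quantile normalization (0.19, adjusted p = 0.110) or centring of the arrays (0.15, adjusted p = 0.267), with every row tested (0.0668), trend and robust (0.0726) or the unmoderated statistic (0.0744), nor in the 5 fits that each lacked 1 array and kept with-glutamine replicate 1 (adjusted p from 0.0935 to 0.120).

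**Figure D3:**
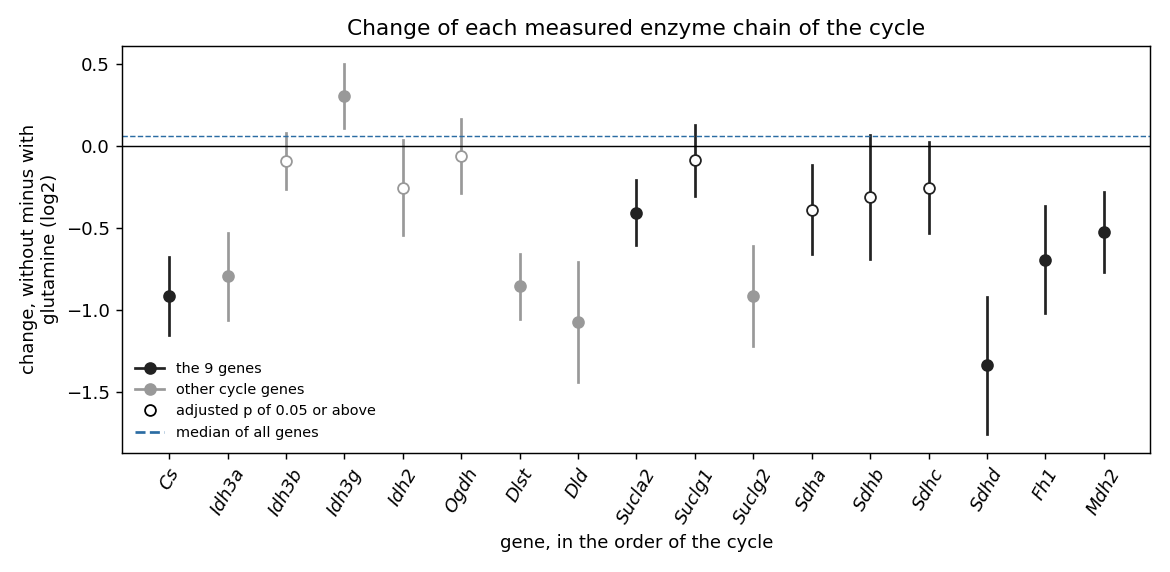
Change without minus with glutamine (log2, vertical axis) of each measured chain of the cycle, in the order of the reactions, with 95% intervals from limma. Black marks the 9 genes and grey the other cycle genes, open circles have an adjusted p of 0.05 or above, and the dashed line is the median change of all genes. Sdhd has the largest change (-1.34) of the genes drawn, and Idh3g (0.30) lies above 0.

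Complexes I and III of the respiratory chain take electrons from NADH and from reduced ubiquinone. Of 33 measured genes of complex I, 7 fell (21.2%), 1 rose and 25 did not pass, with a median change of -0.038. Over all genes 13.0% were called lower, and 26.6% of those above the median level when tested alone. Ndufb11 rose by 0.84, from 9.31 ± 0.38 (adjusted p = 0.0208), and Ndufv3 (-0.80, adjusted p = 0.0376) and the iron-sulfur subunit gene Ndufs1 (-0.69, adjusted p = 0.0134) fell, while the brightest row, Ndufb9, changed by 0.025 (adjusted p = 0.852) and by -0.29 after quantile normalization. The call of Ndufb11 was lost when with-glutamine replicate 2 or any array without glutamine was left out (adjusted p from 0.0585 to 0.0701). That of Ndufv3 was lost in the 5 fits that lacked 1 array and kept with-glutamine replicate 3 (0.0718 to 0.109), and that of Ndufs1 when without-glutamine replicate 2 was left out (0.0552). Of 9 genes of complex III, 1 fell and 8 did not pass, with a median of -0.39. The core protein gene Uqcrc2 fell by 0.57 (adjusted p = 0.00991), and the brightest row, Uqcrb, changed by -0.49 (adjusted p = 0.0507, and 0.0165 with without-glutamine replicate 1 left out).

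Genes whose products make, use or carry the same metabolites fell in 14 of 21 cases (66.7%), with 7 that did not pass, 0 that rose and a median change of -0.72. Of all genes, 13.0% were called lower, and of those above the median level, tested alone, 26.6%. Fah, which releases fumarate at the end of tyrosine breakdown, fell by 2.81 to 4.91 ± 0.029, near the array medians. The cytosolic isocitrate dehydrogenase gene Idh1 fell by 2.35, and Slc25a1, the citrate carrier of the inner mitochondrial membrane, fell by 1.67 from 10.86 ± 0.29. Got2, the mitochondrial aspartate aminotransferase, which uses oxaloacetate, was the brightest of the list and fell by 0.68 from 15.42 ± 0.024. Singled out after their values were seen, Slc25a10, the dicarboxylate carrier, fell by 1.23, and Oxct1, which takes CoA from succinyl-CoA to activate ketone bodies, fell by 1.19. The adjusted p of these genes was at most 0.00193, that of Got2.

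Of 12 measured genes for regulators of mitochondrial biogenesis, 4 fell (33.3%) and 8 did not pass, with a median change of -0.24. The share called lower was 13.0% over all genes and 26.6% among those above the median level, tested alone. The mitochondrial transcription factor gene Tfam fell by 0.55 (adjusted p = 0.0292), and Gabpa (-0.50, adjusted p = 0.00591) and Nrf1 (-0.50, adjusted p = 0.0162), whose products bind promoters of respiratory genes, fell as well. Yy1 was the fourth (-0.30, adjusted p = 0.0460), and Myc, the brightest row, changed by -0.088 (adjusted p = 0.454). Leaving out any array without glutamine ended the call of Tfam (adjusted p from 0.0529 to 0.0971), without-glutamine replicate 2 or 3 that of Nrf1 (0.0509 to 0.0568), and any of the 5 arrays other than with-glutamine replicate 3 that of Yy1 (0.0760 to 0.138).

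**Figure D4:**
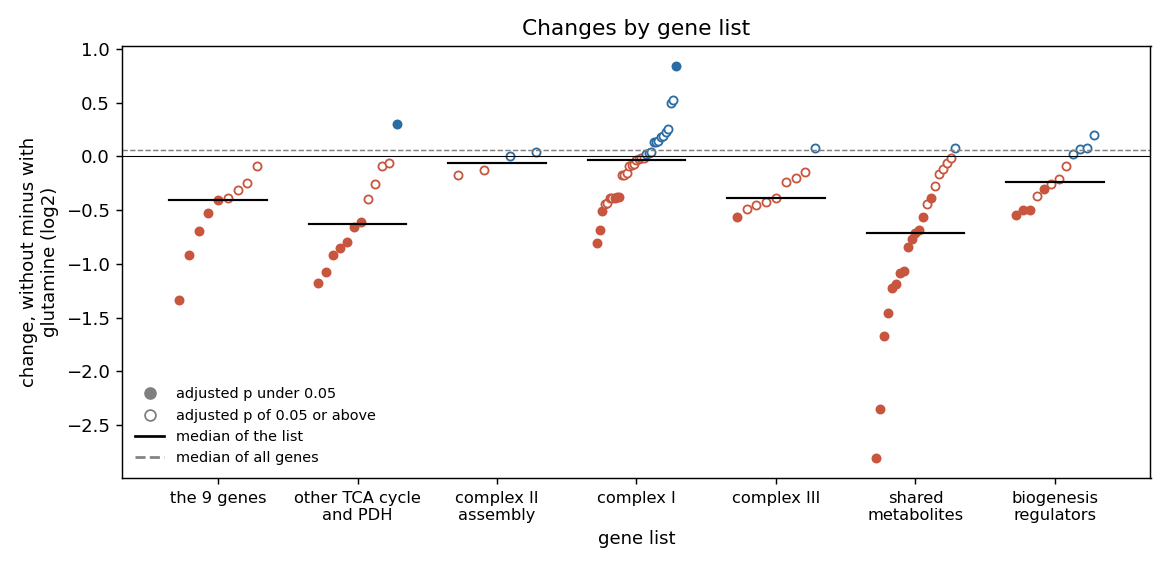
Change without minus with glutamine (log2, vertical axis) of the genes of each list. Filled points passed at an adjusted p under 0.05, black bars are list medians and the dashed line is the median of all genes (0.060). The median of the 9 genes is -0.40, that of the other cycle and pyruvate dehydrogenase (PDH) genes -0.63, that of the complex II assembly factors -0.062 and that of complex I -0.038.

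The promoters of 8 of the 9 genes were matched by symbol in RefSeq (GRCm38.p6), each as 300 bases from 250 before to 50 after the annotated start, and were searched on both strands for motifs chosen after Nrf1 and Gabpa were seen to fall. The core of the NRF1 motif, read as GCGCA, any base and then GCGC, lay in the promoters of 3 of the 8, Sdha, Sdhd and Sucla2, and in 4.6% of 32851 promoters of that length. The ETS core CCGGAAG, which GABPA binds, lay in 2 (Sdhd and Sdhb) and in 8.86% of promoters. The site of estrogen-related receptors, AAGGTCA, lay in 1 (Sdhd) and in 4.72%, and the YY1 core AAGATGG in 0 and in 6.34%. These motifs do not overlap in the promoters of the 8 genes, and a match is a description of letters and not a bound site. Windows of 30 bases around each NRF1 match are printed 5′ to 3′ on the strand of the gene, with the match in capitals, to show the letters matched; they were not tested against the changes of the genes.
Sdhd, 79 bases before the start, chr9:50603909-50603938 (minus strand): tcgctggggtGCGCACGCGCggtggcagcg
Sdha, 98 bases before the start, chr13:74350319-74350348 (minus strand): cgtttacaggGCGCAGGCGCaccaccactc
Sdha, 55 bases before the start, chr13:74350276-74350305 (minus strand): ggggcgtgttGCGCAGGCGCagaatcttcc
Sdha, 10 bases before the start, chr13:74350241-74350270 (minus strand): cgacacccgcgcgactcggtGCGCAAGCGC
Sucla2, 17 bases before the start, chr14:73552756-73552785 (plus strand): caactgcgtctctGCGCCTGCGCggtgccc

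For 3 members, another gene starts on the opposite strand within 500 bases upstream of the member's start, so that each pair lies head to head; these pairs were looked up after the members' values were seen. Timm8b, which encodes a chaperone of mitochondrial protein import, starts 52 bases from Sdhd. Its level was 8.16, 7.83 and 7.504 with glutamine and 7.69, 7.70 and 7.63 without, with overlapping groups and a change of -0.15 (95% interval -0.53 to 0.22, adjusted p = 0.516), beside the change of -1.34 in Sdhd. With with-glutamine replicate 1 left out, the change of Timm8b was 0.00905. Ccdc127 starts 77 bases from Sdha and fell by 0.86, from 8.54 ± 0.014 to 7.68 ± 0.10 (adjusted p = 0.000796), beside the change of -0.39 in Sdha. Styxl1 starts 264 bases from Mdh2 and rose by 0.33, from 3.50 to 3.84 (adjusted p = 0.0126), below the array medians, and its adjusted p was 0.0519 on quantile-normalized values and 0.0991 on centred ones.

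Among genes above the median level and outside the 9, the profiles over the 6 arrays closest to the mean profile of the 9 were those of Uqcrc2, given above, at a root mean square distance of 0.017 log2, of Ufc1, which encodes an enzyme of the ufmylation pathway (0.024), Zfp382 (0.027), Ccdc91 (0.029) and Ptgr2 (0.031). Their changes lay between -0.59 (Zfp382) and -0.51 (Ccdc91). As these genes were picked for closeness on the same arrays, changes near those of the 9 follow from the choice.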

How the data were processed

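The authors deposited log2 expression values, a row for each transcript cluster of an Affymetrix array. The submitters' processing notes name RMA, which corrects background, normalizes arrays and summarises probes, and version 4.0 of the Transcriptome Analysis Console; options, annotation and genome build: not given in the sources used here. All 6 columns were used unchanged (0 columns belonged to other samples).

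Row names came from the platform's annotation table and were brought up to date with RefSeq (GRCm38.p6): of 65956 rows, 31216 named 1 gene, 1534 several and 33206 were unnamed here. The brightest row of each symbol was used, with no filter on dim rows, leaving 30743 genes. Some listed genes are not analysed here.

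Differences were tested with limma 3.58.1 in R 4.3.3 (lmFit and eBayes, two-sided, no covariate), with Benjamini-Hochberg adjustment over all genes at a threshold of 0.05. Differences within arrays were tested with scipy 1.17.1. The fit was tested on simulated data with 30743 genes, 50 changed by each size: it recovered 24% of genes changed by 0.5 log2 and 80% of those changed by 1. There were 8 false calls. The simulation changed 200 genes in all, far fewer than the 6849 called in the data. Its adjustment was therefore stricter, and these shares do not give the recovery in the data. Figures were drawn with matplotlib 3.10.9.

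The members and lists were chosen with earlier results of these data known. All members are named, and of each pathway list every gene where it has 5 or fewer, otherwise the 3 largest changes that passed and the brightest row. Mdh1, Yy1 and the cell marker genes were named outside this rule, as were the genes said to be singled out. The 5 closest profiles leave out predicted genes and small RNAs. The number of arrays limits the precision.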

Additional observations from a re-analysis of the deposited data

How the results depend on the processing

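The change was below 0 for all 9 genes in every alternative run, and Cs and Sdhd passed in each, at the stricter threshold too. The 5 calls became 3 with the unmoderated statistic (Fh1 at adjusted p = 0.0692 and Mdh2 at 0.0560 were lost), 2 at an adjusted p under 0.01, and 3 to 6 when 1 array was left out. The 35 calls among 91 other genes of the pathway lists became 20 with the unmoderated statistic, 20 at the stricter threshold and 21 to 39 when 1 array was left out, the lowest being 21 when without-glutamine replicate 2 and 23 when without-glutamine replicate 3 was left out. The 6849 calls over all genes became 3830, 2940 and 4061 to 6507. Scaling shifted the median of all genes from 0.060 to -0.048 after quantile normalization and -0.095 after centring, and the share of rises among calls from 41.8% to 21.7% and 16.6%; of the 9 genes, 6 and 7 then fell, with medians of -0.47 and -0.56, Sdha being called in both (adjusted p = 0.0179 and 0.0203) and Sdhc in the second (0.0446). Sdha was also called among genes above the median level (0.0381) and with array weights (0.0293). The difference of Sdhd against its partners ranged from -1.16 to -0.87 over its alternatives, that of Sucla2 minus Suclg1 from -0.40 to -0.23 and that of Sucla2 minus Suclg2 from 0.42 to 0.60.

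Same-numbered arrays deviated from their group means with correlations of 0.0654, -0.233 and 0.275 across genes, and 2 of 6 arrays were closest to their own number. The labels do not say whether the numbers pair the cultures, and with 3 arrays per group these values cannot decide it. With the replicate block 6 members fell (Sdha at adjusted p = 0.0326), 35 other pathway genes and 6301 genes in all were called, and Idh3g was not (adjusted p = 0.0666).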
